A study of Mus musculus with 48 samples.

Results

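The livers compared here came from Wfs1 KO and Wfs1 HZ mice that had both received valproic acid (VPA), an anticonvulsant and mood stabiliser that also inhibits histone deacetylases. The samples were chosen by their titles: 8 KO VPA and 8 HZ VPA arrays out of 48 in the series. Each mouse of these 2 groups was a male given 300 mg/kg of VPA intraperitoneally every day for 12 weeks from an age of 4 to 6 weeks. A glucose load of 2 g/kg was given 24 hours after the last injection, and the liver was taken 24 hours after that, at 16 to 18 weeks of age. The clock hour of killing is not given in the sources used here. KO mice carry the Wfs1 mutation on both copies of the gene in all tissues and HZ mice on 1 copy, so neither group is a liver-specific model. KO saline, HZ saline and WT mice, 8 per group, went through the same schedule with VPA or with saline at 10 mL/kg, and served here as the comparison without VPA and as the position of unmutated mice.

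Wfs1 encodes wolframin, which spans the membrane of the endoplasmic reticulum and whose loss causes Wolfram syndrome, with diabetes, optic atrophy and deafness. Liver transcription in the mouse is patterned by inputs that matter for the genes below. Growth hormone is released in pulses in males and more evenly in females, which sets a male-biased and a female-biased programme of cytochromes P450, transporters and secreted proteins through STAT5 and its target repressors. A circadian oscillator, in which CLOCK and ARNTL (BMAL1) drive the Per and Cry repressors and the PAR-domain factors Dbp, Tef and Hlf, makes many metabolic genes rise and fall daily.

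Levels are RMA values on the log2 scale as deposited, 1 value per mouse and probeset, and differences are KO minus HZ in log2 units, where 1 unit is a doubling. Adjusted p-values are from limma with Benjamini-Hochberg adjustment over all 35556 probesets, with a threshold of 0.05. The median of the 16 arrays lay between 6.91 and 6.99, and pairs of arrays correlated at 0.974 to 0.993 over 120 pairs. The targeted gene did not separate the groups. Wfs1 was at 8.01, 8.28 and 8.67 (lowest, median and highest) in KO VPA livers, against 8.10, 8.46 and 8.84 in HZ VPA livers, a difference of -0.14 ± 0.10 (SE, adjusted p = 0.73). Only part of the gene is inactivated in this line and the probeset summarises probes along the whole gene, so this value does not check the labels. Hepatocyte markers were alike: the mean of 8 markers was 13.73 to 13.89 in KO VPA livers and 13.76 to 13.84 in HZ VPA livers, and Alb, Apoa1, Ttr and Trf averaged 14.08 to 14.45 in KO and 14.13 to 14.45 in HZ. The sex recorded in the labels fitted the arrays: Eif2s3y, on the Y chromosome, was at 9.56 to 10.29 in KO VPA and 9.46 to 10.32 in HZ VPA livers, and Xist, the RNA of the inactive X, was at 5.00 to 5.24 in KO VPA and 5.06 to 5.81 in HZ VPA livers. In such bulk tissue, fewer cells of a type and less RNA per cell cannot be told apart.

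HZ VPA replicate 7 stood apart from its group at the gene Abhd1. Abhd1, which encodes a hydrolase-like protein, lies on chromosome 5 (chr5:30950066-30955095, GRCm38.p6), 6.03 Mb from the middle of Wfs1, and separated KO from WT mice completely. It was at 10.61 to 11.38 in KO VPA livers and at 10.10 to 10.71 in 7 of the 8 HZ VPA livers, against 8.49 to 9.07 in WT VPA livers. HZ VPA replicate 7 was at 8.86, inside the WT range. This rests on Abhd1 alone, which is not the mutated gene, and the Wfs1 value does not check the labels. Whether the label of this mouse is right was therefore not tested. Results are given with this mouse as labelled, and the count of calls without it is 84.

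With VPA, KO livers differed from HZ livers at 106 of the 35556 probesets (0.298%). Of these, 66 (0.186%) were higher and 40 (0.112%) lower in KO. At an unadjusted p under 0.05 there were 3168. The 106 probesets comprised 91 with 1 gene symbol, from 90 genes, 7 with several symbols and 8 with none. Changes were moderate: the median absolute difference was 0.69, the smallest called one 0.20, and 26 probesets passed 2-fold, 16 higher and 10 lower. Over all probesets the median difference was 0.01, with 53.3% above 0. In 52 probesets (0.146%), 24 higher and 28 lower, the 8 KO mice lay entirely outside the range of the 8 HZ mice, and 26 of the 106 calls were among them. The count depended on 2 KO mice: it was 41 without KO VPA replicate 4, 39 without replicate 5 and 11, 6 higher and 5 lower, without both, while it was 183 without replicate 1. A fit on the 16 arrays alone called 39.

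The largest group of higher genes was the female-biased one. Of 27 measured genes that female mouse livers express more than male ones, 10 were higher in KO VPA livers, none was lower, and the median difference was 1.09, with 26 of the 27 above 0 and 24 at an unadjusted p under 0.05. In the same fit 0.186% of all probesets were called higher. The mean level of the 27 genes was 7.56 to 10.33 in KO VPA mice, against 7.04 to 7.96 in HZ VPA mice. The study itself chose 12 of the 27 on these same samples as raised in KO. Among the 10 higher genes these include Cyp2a22, Acot3, Slco1a4, Cyp17a1, Fmo2, Cyp2c38 and Abcb1a. Neither the direction nor the calls of the chosen genes are independent evidence. Cyp2a22, a cytochrome P450 of the Cyp2a cluster, was at 7.30, 9.28 and 12.30 in KO VPA livers, against 5.93, 6.97 and 7.33 in HZ VPA livers. KO replicate 1 lay just inside the HZ range and the other 7 KO mice above it, replicates 4 and 5 highest. The difference was 2.92 ± 0.54 (SE, n = 8 per group, adjusted p = 0.0059 by limma), or 7.57-fold.

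Acot3, a peroxisomal acyl-CoA thioesterase that releases free fatty acids from their CoA esters, was at 7.74, 8.94 and 11.07 in KO VPA livers, against 6.79, 7.03 and 7.96 in HZ VPA livers (2.11 ± 0.36, adjusted p = 0.00196). The HZ maximum was a single mouse, replicate 6, and only KO replicate 1 was below it. Its neighbour Acot4, close to it in sequence so that probes may be shared, differed by 1.01 ± 0.21 (adjusted p = 0.0134). Slco1a4, a sinusoidal transporter of bile acids and other organic anions, was at 10.16, 11.12 and 12.03 in KO VPA livers, against 8.87, 9.81 and 10.42 in HZ VPA livers. Its difference of 1.44 ± 0.22 had an adjusted p of 0.000898, the lowest of the comparison together with that of Fras1. Of the KO mice, 7 lay above every HZ mouse.

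Cyp17a1, the steroid 17-alpha-hydroxylase and 17,20-lyase, was at 8.73, 10.23 and 12.48 in KO VPA livers, against 7.95, 8.65 and 9.08 in HZ VPA livers (1.96 ± 0.44, adjusted p = 0.0284). KO replicates 4 and 5 were more than 1 unit above every other mouse. Slc22a27, an organic anion transporter of a cluster of close paralogues, was at 6.23, 7.52 and 9.57 in KO VPA livers, against 5.22, 5.55 and 7.14 in HZ VPA livers (2.08 ± 0.47, adjusted p = 0.0269). Fmo2, a flavin-containing monooxygenase, was at 7.12, 8.18 and 9.83 in KO VPA livers, against 6.59, 6.97 and 7.24 in HZ VPA livers (1.36 ± 0.30, adjusted p = 0.0226). All but 1 KO mouse exceeded the HZ range for Fmo2. Cyp2c38, a P450 of the Cyp2c cluster, had no overlap, with 11.36 to 12.19 in KO VPA livers and 9.67 to 11.30 in HZ VPA livers (1.16 ± 0.24, adjusted p = 0.0134). The drug efflux pump gene Abcb1a (1.09 ± 0.21), the hepcidin paralogue Hamp2 (1.05 ± 0.24) and the nuclear factor gene Tox (0.80 ± 0.17) completed the 10.

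Other female-biased genes had large mean differences and spreads too wide to pass. Sult3a1, a sulfotransferase, was at 3.47, 6.17 and 12.02 in KO VPA livers, against 3.48, 3.57 and 5.08 in HZ VPA livers (3.26 ± 0.95, adjusted p = 0.147). Cyp2b13 was at 4.54, 7.60 and 12.58 in KO VPA livers, against 4.60, 4.73 and 5.05 in HZ VPA livers (3.33 ± 0.84, adjusted p = 0.0611), and the largest mean difference of the list, that of Cyp2b9, was 3.67 ± 1.29 (adjusted p = 0.305). For these genes some KO mice were at the HZ level and others several units above it. Lepr, the leptin receptor gene, which was not on this list, did not overlap, at 6.53, 7.10 and 9.77 in KO VPA livers, against 5.84, 6.12 and 6.41 in HZ VPA livers (1.46 ± 0.35), but missed the threshold with an adjusted p of 0.0512. The study chose Lepr on these samples as raised in KO. Close paralogues in the Cyp2a, Cyp2b and Cyp2c clusters can share probes, so a value cannot be ascribed to 1 gene with certainty.

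**Figure D1:**
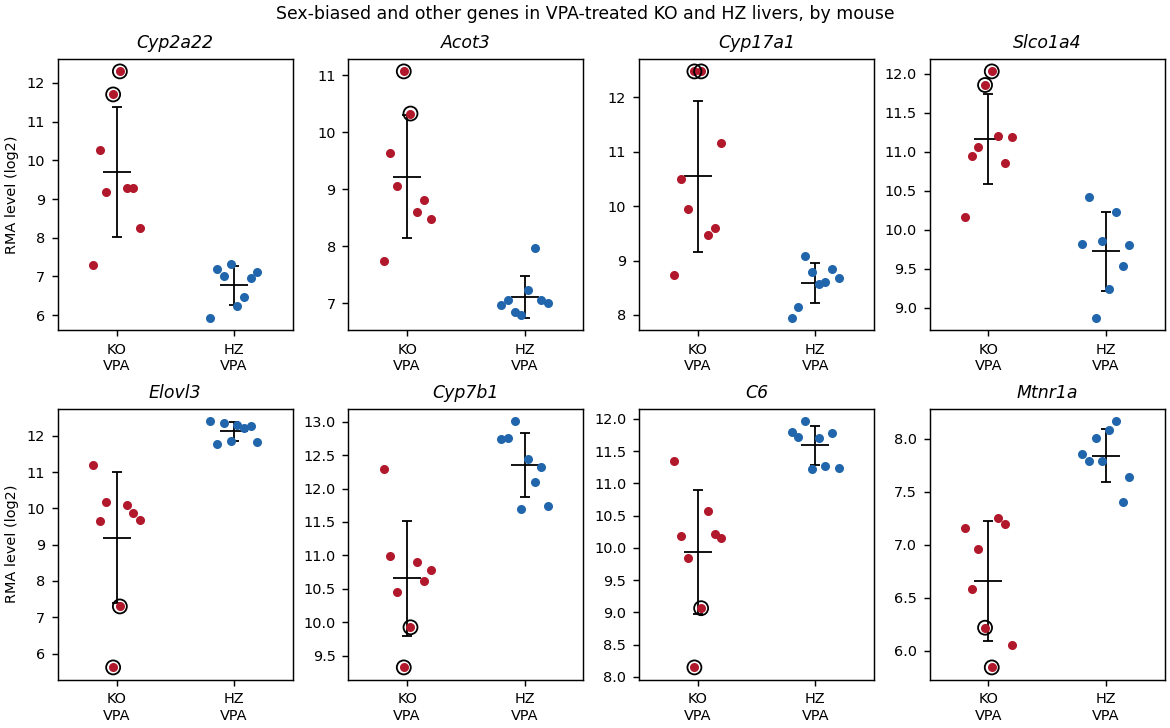
RMA level (log2) of 8 genes in KO VPA (left) and HZ VPA (right) livers. Each point is 1 mouse, the bar and whiskers are mean ± SD (n = 8), and rings mark KO VPA replicates 4 and 5. These 2 mice lie at the upper end for Cyp2a22, Acot3, Cyp17a1 and Slco1a4 and at the lower end for Elovl3, Cyp7b1 and C6, and for Elovl3 and Mtnr1a the groups do not overlap.

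Male-biased genes lay on the other side. Of 29 measured, 6 were lower in KO VPA livers, none was higher, all 29 differences were below 0 and their median was -0.86, where 0.112% of all probesets were called lower. Their mean level was 8.41 to 10.52 in KO VPA mice, against 10.45 to 11.02 in HZ VPA mice. Of the 29, 14 belong to the genes the study chose on these samples as lowered in KO. They include Elovl3, Cyp7b1, Nat8 and Cyp2u1 of the 6, so these calls and their direction are no independent evidence. Elovl3, an elongase of very long fatty acids, was at 5.62, 9.78 and 11.18 in KO VPA livers, against 11.78, 12.24 and 12.41 in HZ VPA livers. No KO mouse reached the lowest HZ mouse, and KO replicates 4 and 5 were the lowest. The difference was -2.93 ± 0.57 (adjusted p = 0.00908), or 7.63-fold lower.

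Cyp7b1, the oxysterol 7-alpha-hydroxylase of the alternative bile acid pathway, was at 9.32, 10.70 and 12.29 in KO VPA livers, against 11.69, 12.38 and 13.01 in HZ VPA livers (-1.69 ± 0.35, adjusted p = 0.0152). Only KO replicate 1 overlapped the HZ mice. Complement component C6 was at 8.15, 10.17 and 11.34 in KO VPA livers, against 11.23, 11.71 and 11.97 in HZ VPA livers (-1.65 ± 0.32, adjusted p = 0.00999), again with KO replicate 1 alone inside the HZ range. Nat8, an N-acetyltransferase, differed by -1.15 ± 0.26 (adjusted p = 0.031), Cyp2u1 by -0.90 ± 0.22 (adjusted p = 0.0484) and Gstp1, a glutathione transferase whose probes may also read Gstp2, by -0.72 ± 0.17 (adjusted p = 0.0483). The most spread member was Cyp4a12a, an arachidonic acid hydroxylase, at 7.59, 13.23 and 13.68 in KO VPA livers, against 13.28, 13.54 and 13.73 in HZ VPA livers (-1.22 ± 0.69, adjusted p = 0.637). Its 2 low values, at 7.59 and 10.83, were those of KO replicates 4 and 5. Hsd3b5, a hydroxysteroid dehydrogenase, was likewise at 6.27, 10.33 and 12.25 in KO VPA livers, against 11.71, 12.21 and 12.70 in HZ VPA livers (-2.15 ± 0.63, adjusted p = 0.16). Without KO VPA replicates 4 and 5, 1 female-biased and 0 male-biased genes passed the threshold (limma), against 5 and 2 without replicate 4 alone and 4 and 2 without replicate 5 alone.

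In the growth hormone pathway itself few genes were called. Of 18 measured, 1 was lower and none higher, where 0.112% of all probesets were called lower and 0.186% higher. Their differences ran from -0.97 to 0.64 with a median of 0.01. At an unadjusted p under 0.05 (limma) there were 4, 1 higher and 3 lower. Stat5a, which transmits the hormone's signal with its paralogue, was at 7.99, 8.20 and 8.51 in KO VPA livers, against 8.42, 8.61 and 8.70 in HZ VPA livers (-0.37 ± 0.08, adjusted p = 0.0134). The groups overlapped only at their margins. The receptor gene Ghr (-0.12 ± 0.05, adjusted p = 0.524) and the secreted effector Igf1 (-0.12 ± 0.06, adjusted p = 0.581) missed the threshold. Of the repressors downstream, Bcl6, which holds female-biased genes down in male liver, was at 6.83 to 8.18 in KO VPA livers and 7.24 to 10.45 in HZ VPA livers (adjusted p = 0.405), and Cux2, a female-biased repressor of male-biased genes, was at 7.12 to 7.99 in KO VPA livers and 7.19 to 7.44 in HZ VPA livers (adjusted p = 0.538). The Bcl6 difference was -1.40 to -0.69 over the alternative fits and omissions of mice.

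Other lower genes were on neither sex-biased list, and the first 3 kept their calls when any 1 of the 16 mice was left out. Mtnr1a, a melatonin receptor gene, was at 5.84, 6.77 and 7.25 in KO VPA livers, against 7.40, 7.82 and 8.17 in HZ VPA livers (-1.18 ± 0.20, adjusted p = 0.00156). The study chose Mtnr1a on these samples as lowered in KO, so its call and direction are no independent evidence. Fras1, an extracellular matrix protein of basement membranes, was at 6.44, 6.58 and 7.02 in KO VPA livers, against 7.11, 7.74 and 8.11 in HZ VPA livers (-1.03 ± 0.16, adjusted p = 0.000898). In both genes the 2 groups were fully apart. Spon2, a secreted matrix protein that binds microbes, was at 7.04 to 8.09 in KO VPA livers and 8.06 to 8.63 in HZ VPA livers (-0.86 ± 0.14, adjusted p = 0.00156). Aox3, an aldehyde oxidase, was at 11.11 to 12.79 in KO VPA livers and 12.77 to 13.38 in HZ VPA livers (-0.93 ± 0.19, adjusted p = 0.0134), and Tsc22d1, a leucine zipper regulator, differed by -0.79 ± 0.17 (adjusted p = 0.0242). Serpina4-ps1, a serpin pseudogene whose probes can also read its functional relatives, differed by -2.26 ± 0.47 (adjusted p = 0.0165).

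Clock genes were called in both directions, where 0.186% of all probesets were called higher and 0.112% lower. Among 9 repressors, Per3 and Cry2 were higher and Nfil3 lower in KO VPA livers, with a median of 0.43; among 3 output factors, Dbp and Tef were higher; and among 5 activators and ROR or REV-ERB receptors, Nr1d2 was higher and Clock lower. Promoters of 3 called clock genes, and of Arntl, which missed the threshold, are printed because CLOCK and ARNTL bind E-boxes, Dbp, Tef, Hlf and their opponent Nfil3 bind D-boxes, and ROR and REV-ERB receptors bind ROR elements. Each window runs from 250 bases before to 50 after the RefSeq transcription start (GRCm38.p6), 5′ to 3′ on the gene's strand, with the matched motif in capitals. The letters searched on both strands were CACGTG for the E-box, found in 7.15% of 32851 promoter windows, TTATGTAA or TTACGTAA for the D-box, found in 1.06%, and TAGGTCA for the ROR element, found in 2.61%. Per3 is on the minus strand at chr4:151044616-151044915, Tef on the plus strand at chr15:81802423-81802722, Nfil3 on the minus strand at chr13:52980990-52981289 and Arntl on the plus strand at chr7:113207261-113207560. Nfil3 holds the ROR element on the opposite strand.
Per3 (D-box, 2 matches): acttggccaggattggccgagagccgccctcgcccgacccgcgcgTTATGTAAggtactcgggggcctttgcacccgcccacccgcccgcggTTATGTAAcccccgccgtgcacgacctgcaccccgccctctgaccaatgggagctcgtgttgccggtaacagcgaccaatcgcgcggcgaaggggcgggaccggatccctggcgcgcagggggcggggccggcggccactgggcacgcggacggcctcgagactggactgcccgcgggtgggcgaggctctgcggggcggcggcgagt
Tef (E-box): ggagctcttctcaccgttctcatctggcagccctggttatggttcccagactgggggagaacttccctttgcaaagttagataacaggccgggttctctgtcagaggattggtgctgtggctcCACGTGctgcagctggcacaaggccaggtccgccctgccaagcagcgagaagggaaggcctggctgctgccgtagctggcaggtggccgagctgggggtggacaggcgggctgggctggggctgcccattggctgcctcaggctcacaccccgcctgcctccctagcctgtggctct
Nfil3 (ROR element): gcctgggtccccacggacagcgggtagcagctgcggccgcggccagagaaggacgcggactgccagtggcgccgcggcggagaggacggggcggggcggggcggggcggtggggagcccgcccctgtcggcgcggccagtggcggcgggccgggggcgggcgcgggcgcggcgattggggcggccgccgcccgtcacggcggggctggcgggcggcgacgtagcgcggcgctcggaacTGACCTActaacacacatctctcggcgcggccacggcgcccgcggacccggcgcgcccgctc
Arntl (ROR element): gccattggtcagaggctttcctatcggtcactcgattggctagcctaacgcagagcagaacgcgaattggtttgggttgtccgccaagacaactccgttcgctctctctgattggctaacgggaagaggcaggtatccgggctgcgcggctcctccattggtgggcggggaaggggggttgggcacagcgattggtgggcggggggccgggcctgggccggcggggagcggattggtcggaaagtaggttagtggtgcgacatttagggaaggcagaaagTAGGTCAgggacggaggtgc
A match describes letters only. The windows of Dbp, Cry2, Nr1d2 and Clock held none of these letters.

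Per3, a repressor of the core loop, was at 7.50, 8.80 and 9.52 in KO VPA livers, against 6.67, 7.04 and 7.60 in HZ VPA livers (1.50 ± 0.24, adjusted p = 0.00156). KO replicates 1 to 3 were near the HZ mice, and replicates 4 to 8 were well above them. Dbp, a PAR-domain activator of detoxification genes, was at 8.51, 9.21 and 10.31 in KO VPA livers, against 7.11, 7.47 and 8.57 in HZ VPA livers (1.60 ± 0.29, adjusted p = 0.00413). A single pair overlapped, KO replicate 3 lying below the highest HZ mouse, replicate 8. Tef, its relative with the E-box above, was at 8.99, 9.79 and 9.86 in KO VPA livers, against 8.56, 8.86 and 9.04 in HZ VPA livers (0.67 ± 0.13, adjusted p = 0.0115), and the KO mice again split, replicates 1 to 3 near HZ and 4 to 8 tightly above.

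Nfil3, which competes with Dbp and Tef for D-boxes, went the other way without overlap, at 8.00, 8.17 and 8.56 in KO VPA livers, against 8.63, 8.96 and 9.20 in HZ VPA livers (-0.69 ± 0.13, adjusted p = 0.0062). Clock, the activator, was at 9.28, 9.58 and 9.94 in KO VPA livers, against 9.85, 10.07 and 10.23 in HZ VPA livers (-0.46 ± 0.10, adjusted p = 0.02). Nr1d2 (REV-ERB beta), which represses Arntl, was at 9.96, 10.28 and 10.56 in KO VPA livers, against 9.53, 9.76 and 10.16 in HZ VPA livers (0.52 ± 0.12, adjusted p = 0.0276). Cry2 differed by 0.41 ± 0.10 (adjusted p = 0.0494), a call lost in 13 of the 16 omissions of 1 mouse, as that of Nr1d2 was in 8 and that of Clock in 3, without KO VPA replicates 4, 5 or 7.

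The remaining clock genes missed the threshold with wide KO spreads. Per1 was at 7.20, 8.94 and 9.65 in KO VPA livers, against 6.83, 7.21 and 7.72 in HZ VPA livers (1.38 ± 0.36, adjusted p = 0.0718). Ciart, a repressor of CLOCK and ARNTL, was at 6.70, 8.33 and 9.38 in KO VPA livers, against 6.03, 6.38 and 7.39 in HZ VPA livers (1.63 ± 0.41, adjusted p = 0.0657). Arntl was at 7.18, 8.59 and 9.02 in KO VPA livers, against 8.90, 9.13 and 9.33 in HZ VPA livers (-0.77 ± 0.23, adjusted p = 0.169). KO replicates 6 and 7 were the lowest for Arntl, and KO replicates 1 to 3 the lowest for Per1 and Ciart. An index of clock phase, the mean of signed, centred levels of 15 clock and rhythmic liver output genes, was -0.56 to 0.45 in KO VPA mice, against 0.48 to 0.99 in HZ VPA mice, narrowly without overlap. KO replicates 1 to 3 were at 0.35 to 0.45, near the HZ mice, and replicates 4 to 8 at -0.56 to -0.15. The index was -1.22 to -0.57 in HZ saline mice and -0.82 to -0.08 in KO saline mice. WT mice were at 0.61 to 1.20 with VPA and -0.59 to 0.60 with saline. With this index as a covariate limma called 0 probesets, with 2557 at an unadjusted p under 0.05. The index is made from genes that differ between the groups, so it takes part of the genotype difference with it, and whether the groups were killed at the same hour was not tested.

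**Figure D2:**
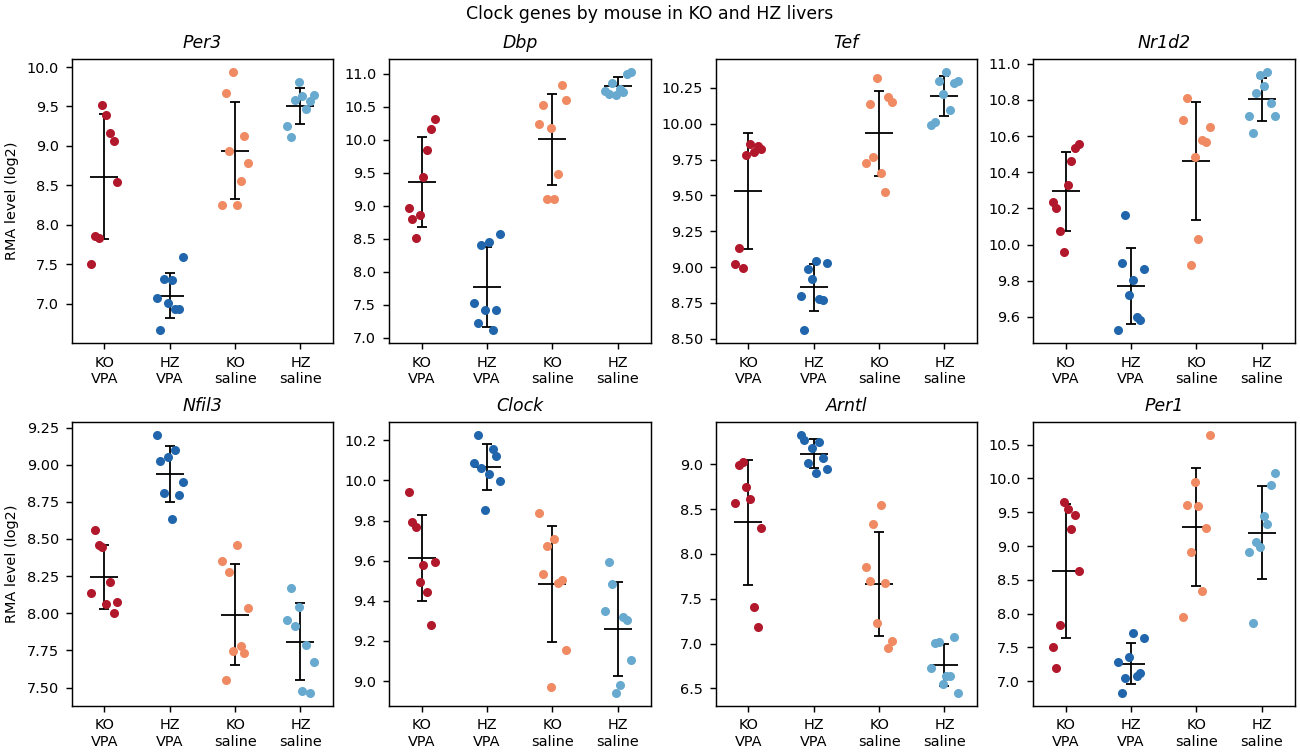
RMA level (log2) of 8 clock genes in KO VPA, HZ VPA, KO saline and HZ saline livers. Each point is 1 mouse and the bar and whiskers are mean ± SD (n = 8). The mean of HZ VPA mice lies below that of KO VPA mice for Per3, Dbp, Tef and Nr1d2 and above it for Nfil3 and Clock, with full separation only for Nfil3 among these 6, and the mean of HZ saline mice lies on the other side of that of KO saline mice for all but Per1.

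In fatty acid and triglyceride synthesis 21 of 24 genes were above 0, with a median of 0.48, and 18 had an unadjusted p under 0.05, 16 higher and 2 lower, as did 3168 of all 35556 probesets. After adjustment only Fads1, the delta-5 desaturase, passed as higher (0.20 ± 0.05, adjusted p = 0.045), beside Elovl3 as lower, where 0.186% of all probesets were called higher and 0.112% lower. Elovl3 is also on the male-biased list. Thrsp, a lipogenic nuclear protein, did not overlap, at 10.63, 10.92 and 11.91 in KO VPA livers, against 9.47, 9.91 and 10.32 in HZ VPA livers (1.20 ± 0.33, adjusted p = 0.0979). Fatty acid synthase, Fasn, differed by 0.57 ± 0.20 (adjusted p = 0.299) and the elongase Elovl6 by 0.88 ± 0.22 (adjusted p = 0.0671). All 18 cholesterol synthesis and uptake genes were above 0 with a median of 0.17, and none passed (limma), with 6 at an unadjusted p under 0.05. Lanosterol synthase, Lss, had their largest difference at 0.61 ± 0.22 (adjusted p = 0.335).

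Mfsd2a, a transporter of lysophosphatidylcholine that carries docosahexaenoic acid, was at 8.40, 10.61 and 11.77 in KO VPA livers, against 7.55, 8.92 and 10.32 in HZ VPA livers (1.68 ± 0.38, adjusted p = 0.029). The groups overlapped, and 6 of the 8 KO mice lay above the HZ maximum. Of 34 PPAR receptors and targets, Acot3, Acot4 and Ppargc1a were higher and none lower, with a median of 0.12, where 0.186% of all probesets were called higher. Acot3 is also on the female-biased list. The study chose Acot3 and Ppargc1a on these samples as raised in KO, so these 2 calls are no independent evidence. Ppargc1a, the coactivator of mitochondrial and gluconeogenic genes, was at 9.30, 9.78 and 10.44 in KO VPA livers, against 8.75, 8.96 and 9.47 in HZ VPA livers (0.79 ± 0.17, adjusted p = 0.0217). The PPAR-delta gene Ppard was at 8.35 to 9.31 in KO VPA livers and 8.75 to 9.57 in HZ VPA livers (-0.44 ± 0.15, adjusted p = 0.298), and Fgf21, a hormone induced by fasting, at 6.72 to 7.17 in KO VPA and 7.14 to 7.66 in HZ VPA livers (adjusted p = 0.363).

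Among 22 bile acid genes, Slco1a4 and Klb were higher and Cyp7b1 lower, with a median of 0.03. Slco1a4 is also on the female-biased list and Cyp7b1 on the male-biased list. Klb, the co-receptor through which the liver senses intestinal FGF15, was at 10.00, 10.19 and 10.45 in KO VPA livers, against 9.51, 9.79 and 10.00 in HZ VPA livers (0.44 ± 0.10, adjusted p = 0.0225), barely without overlap. Of 29 glucose and insulin genes, Ppargc1a and Slc2a2, the glucose transporter GLUT2 (0.30 ± 0.07, adjusted p = 0.0494), were higher and none lower. Of 24 CAR and PXR targets, Cyp2c38 and Abcb1a, both also on the female-biased list, were higher and none lower. At an unadjusted p under 0.05 (limma) there were 12 of the 24, all higher. In this comparison 0.186% of all probesets were called higher and 0.112% lower. Slc16a5, a monocarboxylate transporter, differed by 1.03 ± 0.24 (adjusted p = 0.0394), and Fam13a, linked to adipose and lung traits in human genetics, did not overlap, at 9.23 to 10.25 in KO VPA livers and 8.64 to 9.02 in HZ VPA livers (0.93 ± 0.20, adjusted p = 0.0174).

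In the complement terminal pathway 3 of 11 genes were lower, C6, C9 and Clu, where 0.112% of all probesets were called lower. C6 is also on the male-biased list. C9, which polymerises to form the membrane pore, was at 10.11, 11.79 and 12.19 in KO VPA livers, against 12.47, 12.56 and 12.70 in HZ VPA livers (-1.09 ± 0.24, adjusted p = 0.0251), without overlap. Clu, clusterin, which blocks the pore, differed by -0.30 ± 0.06 (adjusted p = 0.0174). Interferon-stimulated genes were below 0 in 15 of 16 cases with a median of -0.22, and Oasl1, which represses translation of the Irf7 mRNA, alone passed, at 8.10 to 8.91 in KO VPA livers and 8.68 to 9.61 in HZ VPA livers (-0.67 ± 0.14, adjusted p = 0.0168).

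Because Wfs1 acts in the endoplasmic reticulum, its stress genes were examined. None of 30 passed (limma), 3 had an unadjusted p under 0.05, all lower, 25 were below 0, and the median was -0.08. Differences ran from -1.19 to 0.25, so the genes named next are not the widest of the list. The chaperone BiP, Hspa5, was at 12.27, 12.52 and 12.75 in KO VPA livers, against 12.26, 12.62 and 12.73 in HZ VPA livers (-0.05 ± 0.11, adjusted p = 0.929). Its co-chaperone Dnajb9 was at 10.12 to 10.73 in KO VPA livers and 10.21 to 10.99 in HZ VPA livers (-0.19 ± 0.17, adjusted p = 0.809), the transcription factors Xbp1 and Atf4 differed by -0.09 ± 0.10 and -0.04 ± 0.07, and the death-associated Ddit3 (CHOP) by -0.08 ± 0.07. The groups overlapped throughout in all of these. Of 13 endoplasmic reticulum calcium genes and of 11 histone deacetylase genes, the class of enzymes VPA inhibits, none passed either (limma, 0 and 1 at an unadjusted p under 0.05), with medians of -0.02 and -0.03.

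Markers of other liver cells moved little in this comparison. Kupffer cell markers were below 0 in 11 of 11 cases with a median of -0.24 and above 0 in 11 of 11 with saline, with a median of 0.36. None passed in VPA mice (limma, 1 at an unadjusted p under 0.05), and their mean level was 8.66 to 9.30 in KO VPA mice, against 8.85 to 9.41 in HZ VPA mice. The macrophage receptor Adgre1 was at 8.00, 8.23 and 8.94 in KO VPA livers, against 8.24, 8.65 and 10.25 in HZ VPA livers (-0.51 ± 0.22, adjusted p = 0.457). Of 9 endothelial markers none passed (limma, 0 at an unadjusted p under 0.05, median 0.01), against 6 higher with saline, where 0.703% of all probesets were called higher. Of 6 cholangiocyte markers only Sox9, a duct and progenitor factor, was lower (-0.51 ± 0.11, adjusted p = 0.0266), where 0.112% of all probesets were called lower. The part of these cells in the results above was not tested.

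**Figure D3:**
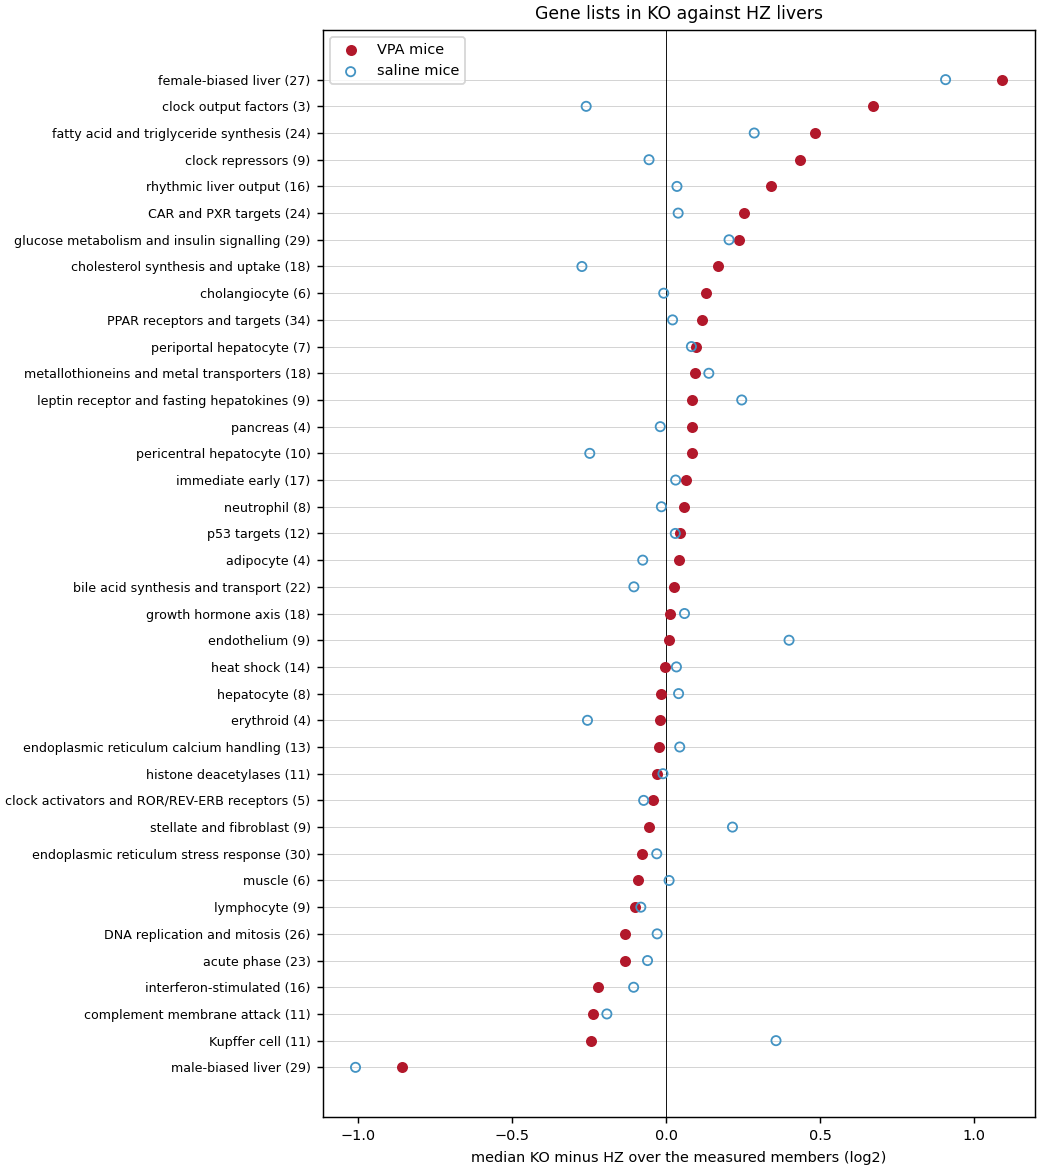
Median KO minus HZ difference (log2) over the measured members of each gene list, whose number is in brackets, in VPA mice (filled points) and saline mice (open points). The lists the study chose on these samples are not drawn, but the female-biased list shares 12 of its 27 genes with them and the male-biased list 14 of its 29. Among the lists drawn, female-biased genes have the highest median with VPA, 1.09, and male-biased genes the lowest, -0.86, and clock output factors, cholesterol genes and Kupffer cell markers have medians of opposite sign in the 2 treatments.

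The same genotypes without VPA used 16 other mice. KO saline livers differed from HZ saline livers at 496 probesets (1.39%), 250 (0.703%) higher and 246 (0.692%) lower, with 4283 at an unadjusted p under 0.05. Of the 106 VPA calls 19 were also called with saline, which is 17.9% of the VPA calls and 3.83% of the saline calls, and 18 had the same direction, 7 higher and 11 lower. Of the 106, 79 (74.5%) had the same sign with saline, against 43.9% of all probesets. Calls shared in direction included Slc22a27, Cyp17a1, Hamp2, Ppargc1a, Abhd1, Elovl3, Cyp7b1, C6, C9, Nat8, Cyp2u1, Gstp1 and Clu. The sex-biased lists had medians of the same sign with saline, 0.91 for the female-biased list (7 higher, none lower) and -1.01 for the male-biased list (19 lower, none higher). For example Elovl3 differed by -2.93 with VPA and -2.95 with saline, and Slc22a27 by 2.08 and 2.25.

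Whether the genotype difference itself depended on VPA was tested as a difference of differences, which passed at 76 probesets (0.214%), 39 positive and 37 negative. Of these, 44 were saline calls, 14 were VPA calls and 19 were called with neither treatment. Among named genes past the threshold, the largest positive gaps were those of the clock genes Dbp and Per3. The KO minus HZ difference of Dbp was 1.60 with VPA and -0.81 with saline, a gap of 2.40 ± 0.41 (adjusted p = 0.00257), and that of Per3 was 1.50 with VPA and -0.57 with saline, a gap of 2.07 ± 0.34 (adjusted p = 0.00225). Nfil3 had a gap of -0.87 (adjusted p = 0.0213), Tef of 0.93, Nr1d2 of 0.86 and Clock of -0.68 (adjusted p = 0.0165, 0.0111 and 0.0165). The study itself chose Nfil3 and Nr1d2 on these same samples for an interaction of genotype and treatment. Their gaps are therefore no independent evidence. Arntl had a gap of -1.67 (adjusted p = 0.0121), from -0.77 with VPA and 0.90 with saline, and Usp2, a ubiquitin protease of the clock output, one of 1.95 (adjusted p = 0.0414).

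The other gaps included the choline kinase gene Chka (-1.75, adjusted p = 0.00455), the manganese exporter gene Slc30a10 (-1.26, adjusted p = 0.00106), the fructose transporter gene Slc2a5 (1.42, adjusted p = 0.00397), the haem synthesis gene Alas1 (1.92, adjusted p = 0.0414), the cell cycle kinase gene Wee1 (1.67, adjusted p = 0.0165) and the vasopressin receptor gene Avpr1a (-1.09, adjusted p = 0.00397). In each of these 6 genes KO minus HZ had opposite signs in the 2 treatments, as in Avpr1a with -0.20 with VPA and 0.89 with saline, and in Slc30a10 with -0.47 and 0.79. No female-biased or male-biased gene passed this test. Car5a, a mitochondrial carbonic anhydrase, was named after its values were seen, as the only probeset called in opposite directions: it differed by 0.38 ± 0.08 with VPA (10.46 to 10.88 in KO and 10.06 to 10.44 in HZ, without overlap, adjusted p = 0.025) and by -0.35 ± 0.08 with saline (adjusted p = 0.0209). Gstt2, a theta-class glutathione transferase, and Mknk2, a kinase of the translation factor eIF4E, were chosen the same way. Both were higher without overlap, Gstt2 at 9.49 to 10.20 in KO VPA and 8.72 to 9.35 in HZ VPA livers and Mknk2 at 9.30 to 10.16 in KO VPA and 8.74 to 9.26 in HZ VPA livers, with gaps to saline of 0.92 (adjusted p = 0.0137) and 0.86 (adjusted p = 0.0375).

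**Figure D4:**
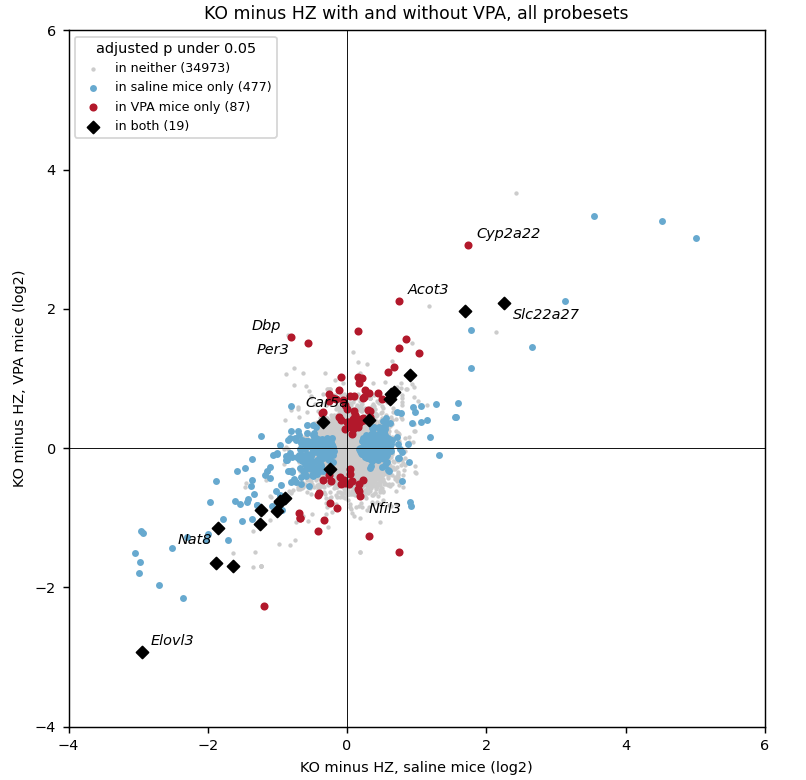
KO minus HZ difference (log2) of each of 35556 probesets in VPA mice (vertical axis) against saline mice (horizontal axis), which share no animal. Grey points passed in neither, blue in saline mice only, red in VPA mice only and black diamonds in both, of which 18 of 19 lie in the quadrants of equal sign.

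Counts within a genotype were unequal. HZ VPA livers differed from HZ saline livers at 3726 probesets (10.5%), and KO VPA livers from KO saline livers at 4 (0.0112%), all higher. These contrasts share mice with those above and are given only as counts. Dbp differed by -3.05 between HZ VPA and HZ saline livers (adjusted p = 2.74e-09) and by -0.65 between KO VPA and KO saline livers (adjusted p = 0.647). Among VPA mice, KO livers differed from WT livers at 144 probesets (0.405%) and HZ livers from WT livers at 1 (0.00281%), Abhd1, with 1023 at an unadjusted p under 0.05. WT VPA mice overlapped the HZ VPA mice in the clock genes: Dbp was at 6.87, 7.66 and 8.25, Per3 at 6.66, 7.05 and 7.35 and Nfil3 at 8.65, 9.02 and 9.34 in WT VPA livers. They also did so in Elovl3, at 11.64, 12.44 and 13.08, and in Cyp2a22, at 6.34, 6.62 and 6.97.

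Since Wfs1 lies on chromosome 5, calls were also counted by chromosome. Chromosome 5 held 14 of the called probesets with 1 symbol, from 13 genes, out of 1294 (1.08%), against 91 of 21695 (0.42%) over all chromosomes. Within 40 Mb of Wfs1, 10 of 433 (2.31%) were called, and 2 of these were also called with saline. Wfs1 lies less than 40 Mb from the start of the chromosome, so the window is cut short on the lower-coordinate side. The limit falls just past Clock, at 39.28 Mb, and the next called gene, Fras1, is at 59.602 Mb. The share depends on this limit and only describes the calls, and clustering around Wfs1 was not tested. The nearest were Spon2 (chr5:33213518-33218254), 3.76 Mb away on the lower-coordinate side, and Abhd1. Farther out, the RNA methyltransferase-family gene Nsun7 was at 5.45 to 5.93 in KO VPA livers and 4.75 to 5.17 in HZ VPA livers (0.69 ± 0.13, adjusted p = 0.00732). The lipid flippase gene Atp10d was at 8.13 to 8.79 in KO VPA livers and 7.35 to 8.10 in HZ VPA livers (0.73 ± 0.15, adjusted p = 0.012), and the ubiquitin ligase gene Lnx1 at 7.20 to 7.81 in KO VPA and 6.35 to 7.12 in HZ VPA livers (0.75 ± 0.16, adjusted p = 0.02). These 3 did not overlap, and their differences with saline were -0.07, 0.22 and 0.10, none past the threshold. Nsun7 was dim, with a mean of 4.9959 in HZ VPA livers, where the dim filter was set at 5. Clock, Klb, Ppargc1a and Abcb1a, described above, also lie in this stretch, and Fras1, Sparcl1, Oasl1 and Rplp0 lie beyond it. The genes named here only for their place on chromosome 5 were chosen after their values were seen.

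**Figure D5:**
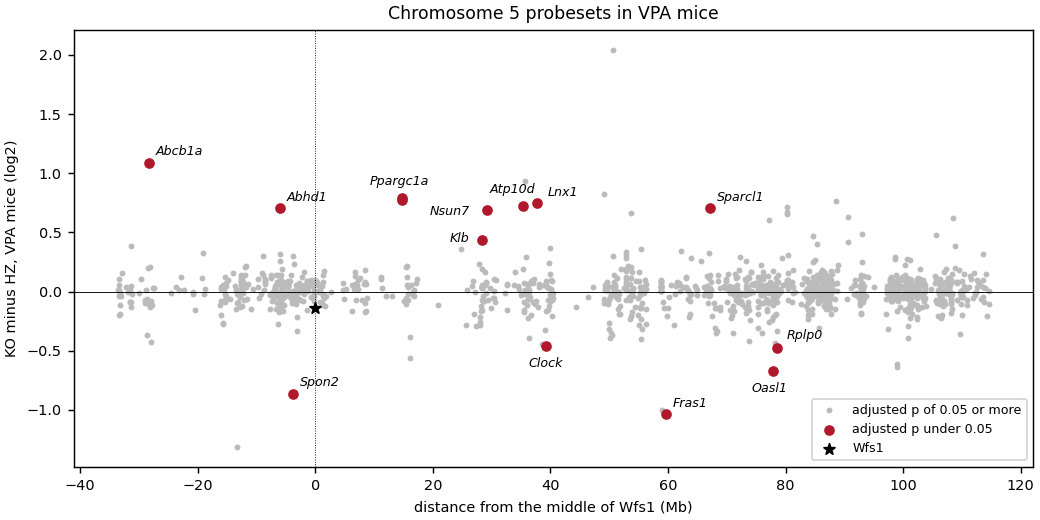
KO minus HZ difference in VPA mice (log2, vertical axis) of chromosome 5 probesets with 1 gene symbol against their distance from the middle of Wfs1 (Mb, horizontal axis). Red points have an adjusted p under 0.05, grey points do not, and the star is Wfs1; 10 of the 14 called probesets lie within 40 Mb of it.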

How the data were processed

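Liver RNA of 48 male mice, 1 animal per array and 8 per group, was hybridised to Affymetrix Mouse Gene 1.0 ST arrays. The deposited values are log2 RMA levels that the authors made with Affymetrix Expression Console 1.1.2800.28061, per the submitters' processing notes. RMA corrects the background, equalises array distributions and summarises the probes of a probeset, so a global shift between groups cannot be seen. Of 35556 probesets, 21797 had 1 gene symbol, 1613 several and 12146 none, giving 19946 genes, and 21698 of the single-symbol probesets matched RefSeq. A gene was represented by its brightest probeset. limma 3.58.1 (R 4.3.3) fitted 6 group means over all 48 arrays, with Benjamini-Hochberg adjustment over all probesets and a threshold of 0.05. The fitting step was tested on simulated data. The number of arrays limits the precision. Promoters are RefSeq windows of 300 bases.

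Genes were named if among the 15 largest rises or 15 largest falls past the threshold, or among the 10 largest of each sign in the difference between treatments, or if called or defining members of a list, or in the lists of the study. Car5a, Gstt2, Mknk2 and the chromosome 5 genes Nsun7, Atp10d, Lnx1, Sparcl1 and Rplp0 were added after their values were seen. Members and lists were chosen with earlier results of these data known. Genes of chromosome 18 are not reported here. Alternatives changed the array weighting, prior, centring, filters, probeset choice, threshold, arrays fitted, a replicate block, a clock covariate and single mice. Leaving out KO VPA replicates 4 and 5 together was chosen after seeing the data.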

Additional observations from a re-analysis of the deposited data

Results flagged for a closer look

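A test of the KO minus HZ difference with VPA minus that with saline (limma, adjusted p under 0.05) was passed by 24 of 106 genes examined singly. Over all probesets it was passed by 76 of 35556 (0.214%). Only part of these 106 genes is named here, and they are not the same set as the 106 called probesets. The log2 gaps were positive for Dbp (2.40), Per3 (2.07), Usp2 (1.95), Alas1 (1.92), Wee1 (1.67), Upp2 (1.47), Slc2a5 (1.42), Akr1c19 (1.29), Bhlhe41 (1.04), Msmo1 (0.97), Tef (0.93), Gstt2 (0.92), Nr1d2 (0.86), Mknk2 (0.86) and Car5a (0.73). They were negative for Chka (-1.75), Arntl (-1.67), Slc30a10 (-1.26), Tnfaip2 (-1.13), Clpx (-1.12), Avpr1a (-1.09), Lgalsl (-0.93), Nfil3 (-0.87) and Clock (-0.68). Many were chosen for this gap.

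In 11 of 212 groups of 8 mice, 1 mouse lay far from the others by Dixon's criterion, which chance meets in about 1 in 20 groups. Among KO VPA mice, replicate 4 was highest for Cry1 (8.28, next 7.70) and Atp10d (8.79, next 8.44) and lowest for Cyp4a12a (7.59, next 10.83), and replicate 1 was lowest for Cyp2b9 (5.32, next 10.26). Among HZ VPA mice, replicate 6 was highest for Acot3 (7.96, next 7.22) and Sult3a1 (5.08, next 3.58), replicate 3 for Cyp2u1 (10.22, next 9.63) and Bhlhe41 (5.94, next 5.37), replicate 8 for Usp2 (8.11, next 7.47) and replicate 5 for Adgre1 (10.25, next 8.86). HZ VPA replicate 7 was lowest for Abhd1 (8.86, next 10.10), and without it the Abhd1 difference was 0.50 with an adjusted p of 0.0521.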

How the results depend on the processing

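The count of 106 probesets for KO against HZ with VPA became 203 with array weights, 160 with single-symbol probesets or with 1 probeset per gene, 39 with only the 16 arrays, 24 at an adjusted p under 0.01, 41 at the methods' threshold (unadjusted p under 0.001 and 2-fold), 11 without KO VPA replicates 4 and 5, and 0 with the clock index as a covariate (limma, with 2557 at an unadjusted p below 0.05). In saline mice the 496 calls became 214 with only the arrays compared, 223 at an adjusted p under 0.01, 68 at the methods' threshold and 273 with the clock index. The count of 76 for the difference became 317, 143 and 141 with array weights, single-symbol probesets and 1 probeset per gene, 14 at an adjusted p under 0.01, 33 at the methods' threshold and 0 with the clock index (2593 below that p). The cause of the moved counts was not tested. Another prior, centring and the dim filter kept all 3 counts within 1.5 times.

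Leaving out 1 mouse gave 39 to 183 calls with VPA, lowest without KO replicate 5, then 41 without replicate 4, and highest without replicate 1. With saline it gave 294 (without KO saline replicate 4), then 313 (replicate 5), to 676 (replicate 7). For the difference it gave 42 (without HZ saline replicate 4) to 153 (without KO saline replicate 8), with 44, 45, 46, 47, 47, 49 and 50 without HZ saline 5, HZ VPA 1, KO saline 5, KO VPA 7, KO VPA 8, HZ VPA 4 and HZ VPA 6. Of 51 called genes printed, 17 kept their call under each of the 16 omissions of a VPA mouse, among them Cyp2a22, Acot3, Slco1a4, Dbp, Per3, Tef, Elovl3, C6, Mtnr1a, Fras1, Spon2 and Nfil3. The other 34 lost it in at least 1, and 33 of these without KO VPA replicate 4 or 5.

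The replicate block gave 156 calls with VPA, 582 with saline and 108 for the difference. Mice with the same number did not deviate together: in VPA mice the correlation was over 0.1 in 2 of 8 pairs and 1 of 8 mice correlated best with its own number.

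KO minus HZ with VPA changed sign only with the clock index as a covariate, in 14 of the genes printed: Chka (1e-04), Arntl (0.24), Clpx (0.0843), Avpr1a (0.13), Lgalsl (0.0876), Cry1 (0.0311), Hspa5 (0.011), Atf4 (0.0536), Usp2 (-0.29), Bhlhe41 (-0.21), Per1 (-0.14), Nr1d1 (-0.0603), Ciart (-0.30) and Bhlhe40 (-0.33).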
